A study of Mus musculus with 3 samples.

Results

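The transcripts described here are those of 10 mouse genes of the antioxidant and metal-binding response: Hmox1, Nqo1, Gclm, Gclc, Slc7a11, Txnrd1, Srxn1, Prdx1, Mt1 and Mt2. They were chosen by symbol, and all 10 were found among the 32285 genes of the count tables. The tissue was cornea and limbus, the rim where cornea meets sclera, from wild-type mice, with 1 mouse and 1 droplet single-cell library for each of 3 conditions. The uninjured library had no injury or treatment named. The saline library followed nitrogen mustard (NM) injury with saline treatment, and the losartan library followed the same injury with treatment by losartan, a blocker of the angiotensin II receptor. The labels used here do not give the time after injury, the losartan dose or route, or the age of the mice. With 1 mouse per condition a difference has no replicate check, and a difference between mice or libraries cannot be told apart from one between treatments.

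Nitrogen mustard is an alkylating agent that reacts with DNA bases and with thiols, glutathione among them. NRF2, encoded by Nfe2l2, is a transcription factor that KEAP1 holds at low levels by marking it for degradation. When electrophiles or oxidants modify KEAP1, NRF2 accumulates and binds the antioxidant response element (ARE) as a dimer with a small MAF protein, and BACH1 competes for such sites. Its known targets include heme oxygenase 1 (Hmox1), the quinone reductase Nqo1, the catalytic and modifier subunits of glutamate-cysteine ligase (Gclc and Gclm), the cystine importer Slc7a11, thioredoxin reductase 1 (Txnrd1), sulfiredoxin (Srxn1) and peroxiredoxin 1 (Prdx1). Metallothioneins Mt1 and Mt2 are small cysteine-rich proteins that bind zinc and copper. They are induced through the metal response element (MRE) by MTF1, and also by glucocorticoids and inflammatory signals.

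In the GRCm38 build with GENCODE M21 annotation, Srxn1 lies at chr2:152105516-152111376, Gclm at chr3:122245557-122270732, Prdx1 at chr4:116685544-116700822, Gclc at chr9:77754535-77794485 and Txnrd1 at chr10:82833951-82897712, all on the plus strand. Slc7a11 lies on the minus strand at chr3:49892526-50443614. Chromosome 8 holds Hmox1 at chr8:75093621-75100589, Mt2 at chr8:94172664-94173568 and Mt1 at chr8:94179082-94180327, all on the plus strand, and Nqo1 on the minus strand at chr8:107388225-107403206. Mt2 and Mt1 are neighbours with 5513 bases between them. They are close paralogs, and how reads matching both were counted was not given in the sources used here.

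Promoter sequence, from RefSeq with the GRCm38.p6 build, was at hand for 8 of the 10 genes, without Hmox1 and Gclc. It was searched on both strands from 250 bases before to 50 bases after each start for the ARE core TGACNNNGC and for the MRE cores TGCACNC and TGCGCNC. Matches are letters in a window, not sites shown to be bound. Positions count from the start, which is 1, with negative numbers upstream. The stretches below are from the 6 members with a match, shown so that the letters can be read beside their levels, each on the plus strand and with every matched base in capitals.
Gclm: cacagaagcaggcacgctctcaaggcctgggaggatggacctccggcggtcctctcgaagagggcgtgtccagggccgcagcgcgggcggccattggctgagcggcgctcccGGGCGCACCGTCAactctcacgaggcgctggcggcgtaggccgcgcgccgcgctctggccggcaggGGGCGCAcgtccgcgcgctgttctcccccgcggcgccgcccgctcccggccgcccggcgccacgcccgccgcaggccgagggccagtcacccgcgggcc
Txnrd1: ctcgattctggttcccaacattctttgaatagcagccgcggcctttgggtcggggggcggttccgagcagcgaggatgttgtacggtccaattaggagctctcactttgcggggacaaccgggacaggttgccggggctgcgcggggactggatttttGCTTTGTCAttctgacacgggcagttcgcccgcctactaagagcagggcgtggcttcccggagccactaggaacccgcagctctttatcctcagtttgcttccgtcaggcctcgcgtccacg
Srxn1: cgccacggcgggcagtgggcaGCTAGGTCA
Prdx1: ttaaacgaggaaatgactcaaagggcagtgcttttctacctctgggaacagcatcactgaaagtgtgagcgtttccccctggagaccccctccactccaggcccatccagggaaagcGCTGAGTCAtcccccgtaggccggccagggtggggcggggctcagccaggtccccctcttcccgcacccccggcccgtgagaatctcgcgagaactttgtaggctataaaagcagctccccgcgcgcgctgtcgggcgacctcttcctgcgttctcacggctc
Mt1: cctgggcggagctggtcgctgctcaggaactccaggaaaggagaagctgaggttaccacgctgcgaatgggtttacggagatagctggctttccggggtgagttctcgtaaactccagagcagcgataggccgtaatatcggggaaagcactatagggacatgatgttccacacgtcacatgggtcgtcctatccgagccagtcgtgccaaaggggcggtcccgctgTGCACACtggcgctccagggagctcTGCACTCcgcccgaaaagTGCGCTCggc
Mt2: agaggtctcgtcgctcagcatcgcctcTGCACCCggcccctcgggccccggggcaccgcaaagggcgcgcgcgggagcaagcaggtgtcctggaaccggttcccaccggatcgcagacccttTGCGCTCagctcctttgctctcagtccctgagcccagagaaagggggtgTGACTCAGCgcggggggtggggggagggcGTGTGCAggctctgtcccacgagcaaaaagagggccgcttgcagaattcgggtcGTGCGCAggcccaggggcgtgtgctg
The windows are chr3:122245307-122245583 for Gclm, chr10:82858956-82859235 for Txnrd1, which is 1 of its 3 RefSeq starts, chr2:152105531-152105560 for Srxn1, chr4:116685349-116685628 for Prdx1, chr8:94178839-94179118 for Mt1 and chr8:94172368-94172647 for Mt2. The ARE core was matched at -134 to -126 in Gclm, -92 to -84 in Txnrd1, 29 to 37 in Srxn1 and -133 to -125 in Prdx1, on the minus strand in each, and at -79 to -71 on the plus strand in Mt2. Among all 32851 promoters of the table, 12.4% held an ARE core and 25.7% an MRE core. Mt1 held 3 MRE cores and Mt2 held 4 in their whole windows, and 1.97% of all promoters held 3 or more. Gclm also held 3 MRE cores, the farthest upstream overlapping its ARE core, and Srxn1 held 1. Neither the Nqo1 nor the Slc7a11 window held these letters.

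**Figure D1:**
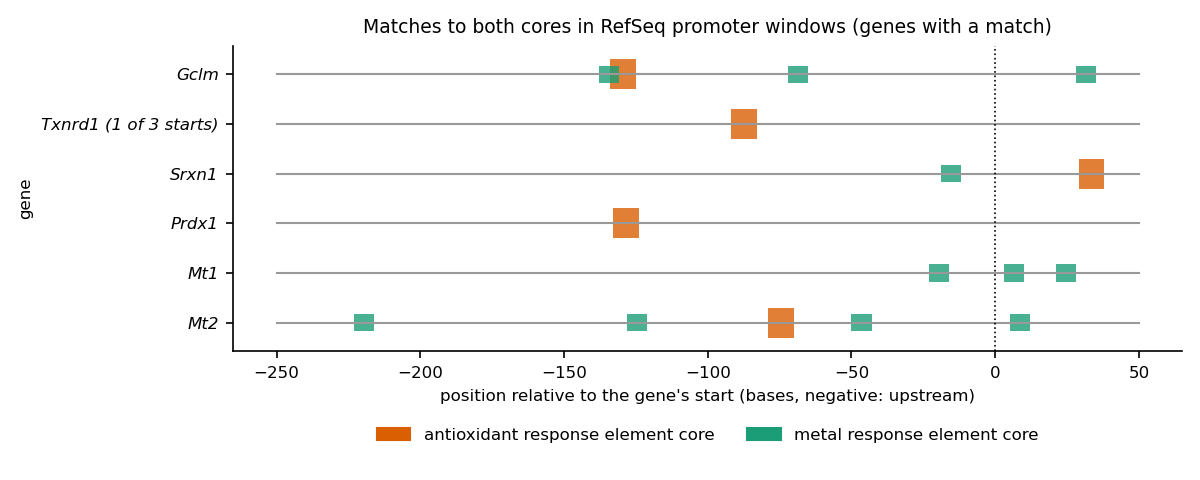
Position of each ARE core (TGACNNNGC) and MRE core (TGCACNC or TGCGCNC) in bases relative to the gene's start for the 6 genes with a match, from RefSeq promoters. The ARE cores of Gclm, Txnrd1, Prdx1 and Mt2 lie upstream of the start, that of Srxn1 lies just after it, and Mt1 holds MRE cores only.

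The 3 libraries held 13270 barcodes (uninjured), 6814 (saline) and 5887 (losartan), with 177003042, 83155441 and 92753670 unique molecular identifiers (UMIs, counted transcripts). After filters on genes, mitochondrial share and doublets, 11233, 5800 and 4919 cells were kept, with median UMIs of 11488, 4104.5 and 6078. Libraries shared 7 to 28 barcodes. Cells fell into 28 clusters, named from marker genes as epithelial-like (8458 uninjured, 1139 saline and 1963 losartan cells), stromal fibroblast-like (398, 700 and 691), macrophage or monocyte-like (3, 667 and 396), neutrophil-like (1, 2986 and 1380) and smaller classes. In at least 10% of their cells, the epithelial-like clusters had 18 to 22 of 22 epithelial markers, the stromal ones 12 to 14 of 15, the macrophage-like one 18 of 19 and the neutrophil-like ones 14 of 16. Their own markers were not always among the 10 leading genes of a cluster: 5 of 11 epithelial-like clusters and 1 of 4 stromal clusters had any. Clusters that stayed unnamed held 19.3%, 2.74% and 6.93% of the kept cells. Most of the unnamed uninjured cells were in clusters 6 and 10, with 1229 and 927 of them. These clusters had 17 of 22 epithelial markers, and stayed unnamed because they were shallow with no marker among their leading genes. Only Hmox1 and Slc7a11 were among the 2000 variable genes behind the clusters, and none of the 10 members was among the 10 leading genes of a cluster. Levels are given as UMIs summed over the cells of a class per 1000000 UMIs of that class (CPM), with exact Poisson 95% intervals, and ratios with exact conditional binomial 95% intervals. These intervals cover counting error only. A gene is called higher or lower in a pair of libraries when it differs by at least 1.5-fold on the CPM + 5 scale and reaches 10 CPM in at least 1 of them. Log2 ratios below are on that scale, and the share of all measured genes called the same way is given beside the counts of each pair.

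The members differed widely between the named cell classes, to which the rankings here are confined. Hmox1 was highest in macrophage or monocyte-like cells, at 1150.1 CPM (1129.7 to 1171) in saline and 690.1 CPM (666 to 715) in losartan. Slc7a11 stood at 4468 CPM (4429.9 to 4506) and 3022 CPM (2966 to 3079) in neutrophil-like cells of those libraries, and at 0.757 CPM (0.617 to 0.92) in uninjured epithelial-like cells. Nqo1 ran the other way: it was 61.8 CPM (60.5 to 63.2) in uninjured epithelial-like cells and no more than 6.34 CPM in any neutrophil-, macrophage- or dendritic-like point. The order for Nqo1 was not resolved at its top. The interval in uninjured epithelium overlapped those of mural-like cells, at 58.7 CPM in losartan and 49.4 CPM in saline.

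Metallothioneins were highest in stromal fibroblast-like cells of the losartan library, at 3026 CPM (2993 to 3059) for Mt1 and 1845 CPM for Mt2. They were lowest in saline neutrophil-like cells, at 48.5 CPM for Mt1 and 7.37 CPM for Mt2. Prdx1, which reduces peroxides, was 1976 CPM (1949 to 2003) in saline macrophage-like cells and 76.5 CPM in saline neutrophil-like cells. Srxn1, which repairs overoxidised peroxiredoxins, was also highest in saline macrophage-like cells, at 64.3 CPM (59.5 to 69.3). That interval overlapped those of 33 saline mural-like cells, at 55.6 CPM (25.4 to 106), and of losartan mural-like cells, at 47.5 CPM (32.9 to 66.4). Txnrd1 peaked in losartan neutrophil-like cells at 489 CPM (466 to 512), which overlapped losartan dendritic-like cells at 475 CPM (429 to 525) and the 33 saline mural-like cells at 389 CPM (299 to 498). Gclc was highest in losartan mural-like cells, at 300.4 CPM (262 to 343), and Gclm also led there at 127 CPM (102 to 156), overlapping saline macrophage-like cells at 105 CPM. The Gclm interval also overlapped those of saline mural-like cells, at 98.8 CPM (56.5 to 160.4), and uninjured Schwann-like cells, at 85.1 CPM (52.7 to 130.1).

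**Figure D2:**
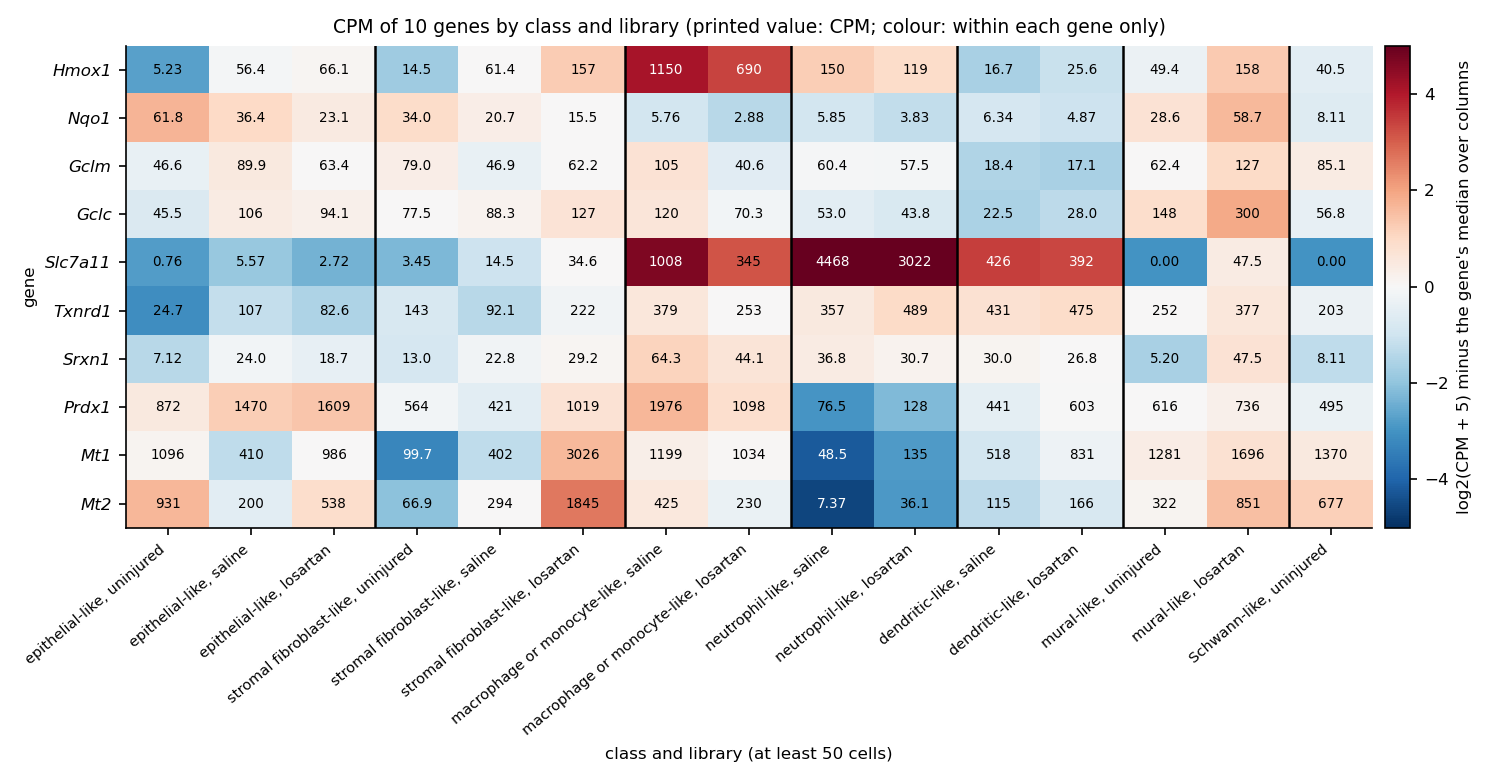
CPM of the 10 members (vertical axis) in each class and library with at least 50 cells (horizontal axis). Printed numbers are CPM and colours show log2(CPM + 5) minus the gene's own median, so colours compare columns within a gene. Slc7a11 reads 4468 and 3022 in neutrophil-like cells, Hmox1 reads 1150 and 690 in macrophage-like cells, and Mt1 reads 3026 in losartan stromal cells.

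Epithelial-like cells of the saline library had more of 6 members and less of 3 than those of the uninjured library. The NRF2 targets of heme, glutathione and thioredoxin metabolism were higher, while the metallothioneins and Nqo1 were lower. Of all 8697 genes measured in this pair, 19.4% were called higher and 17.5% lower. The members' median log2 ratio, over the 9 that reached 10 CPM, was 0.88, against 0.01 for all genes.

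Hmox1, which degrades heme, was 5.23 CPM (4.85 to 5.63) in uninjured epithelium, 56.4 CPM (54.1 to 58.7) in saline and 66.1 CPM (64.1 to 68.1) in losartan. The uninjured value lay far below both injured ones, and the saline to uninjured ratio was 10.8 (9.90 to 11.7), a log2 ratio of 2.59. The summed level of 19 macrophage markers in these cells was 951, 2371 and 1266 CPM, against 31575 CPM in saline and 24470.1 CPM in losartan macrophage-like cells, and their part in the Hmox1 level was not tested. Hmox1 in saline epithelium was 4.90% of its level in saline macrophage-like cells. The 5 of those markers that were at least 10 times as high in macrophage-like cells as in any other class (C1qa, C1qb, C1qc, Lyz2 and Ms4a7) were at 0.0400% to 0.0974% of theirs. In losartan Hmox1 was at 9.57% and the 6 markers so chosen at 0.0132% to 0.181%.

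The rate-limiting step of glutathione synthesis was represented by both subunits. Gclc was 45.5 CPM in uninjured, 106 CPM in saline and 94.1 CPM in losartan epithelium, and the saline value was 2.32 times the uninjured one (2.23 to 2.41). Gclm was 46.6 CPM, 89.9 CPM and 63.4 CPM in the same order, with a saline to uninjured ratio of 1.93 (1.85 to 2.01). Over the whole class both subunits were thus lowest without injury, though Gclc differed between clusters, as given below. The losartan level of Gclm lay between the others, at 1.36 times the uninjured level and not called. Slc7a11 stayed under 10 CPM in epithelium, at 0.757, 5.57 (4.88 to 6.33) and 2.72 CPM, and was not called. Its saline level there was 0.125% of that in saline neutrophil-like cells, beside 0.0420% to 0.611% for the 8 of 16 neutrophil markers that were at least 10 times as high in neutrophil-like cells as in any other class. Whether RNA carried over between droplets has a part in it was not tested.

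In the thioredoxin branch, Txnrd1 was 24.7 CPM (23.8 to 25.5) in uninjured, 107 CPM (104 to 109.8) in saline and 82.6 CPM (80.3 to 84.9) in losartan epithelium. The saline to uninjured ratio was 4.32 (4.13 to 4.52). Srxn1 was 7.12, 24.0 and 18.7 CPM, a saline to uninjured ratio of 3.37 (3.09 to 3.69). Prdx1, already abundant without injury, was 872 CPM, 1469.9 CPM and 1609 CPM, and 1.69 times as high in saline as in uninjured epithelium (1.67 to 1.70). All 3 genes were called higher in each injured library than in the uninjured one, with losartan to uninjured ratios of 3.35, 2.62 and 1.85.

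Nqo1 did not move with the other NRF2 targets. It was 61.8 CPM in uninjured, 36.4 CPM (34.6 to 38.2) in saline and 23.1 CPM (21.9 to 24.3) in losartan epithelium, 3 values whose intervals do not overlap. It was 1.70-fold lower (1.61 to 1.80) in saline and 2.68-fold lower (2.54 to 2.84) in losartan than in uninjured. Losartan against saline, at a log2 ratio of -0.56, was just short of the call on the CPM + 5 scale.

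Mt1 was 1096 CPM (1089.9 to 1101) in uninjured, 410.2 CPM (404 to 416) in saline and 986 CPM (978 to 994) in losartan epithelium. Mt2 was 931, 199.8 and 538 CPM in the same order. Both were lowest in saline, by 2.67-fold (2.63 to 2.71) for Mt1 and 4.66-fold (4.56 to 4.76) for Mt2 against uninjured. In losartan they were 2.40 times (2.36 to 2.45) and 2.69 times (2.63 to 2.76) the saline level. These were the only members called between losartan and saline epithelium, where 1.95% of 8054 measured genes were called higher and 5.39% lower and the members' median log2 ratio was -0.16 against -0.06 for all genes. Against uninjured, losartan Mt1 was 0.900 times as high and not called, and Mt2 was 1.73-fold lower (1.71 to 1.75).

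**Figure D3:**
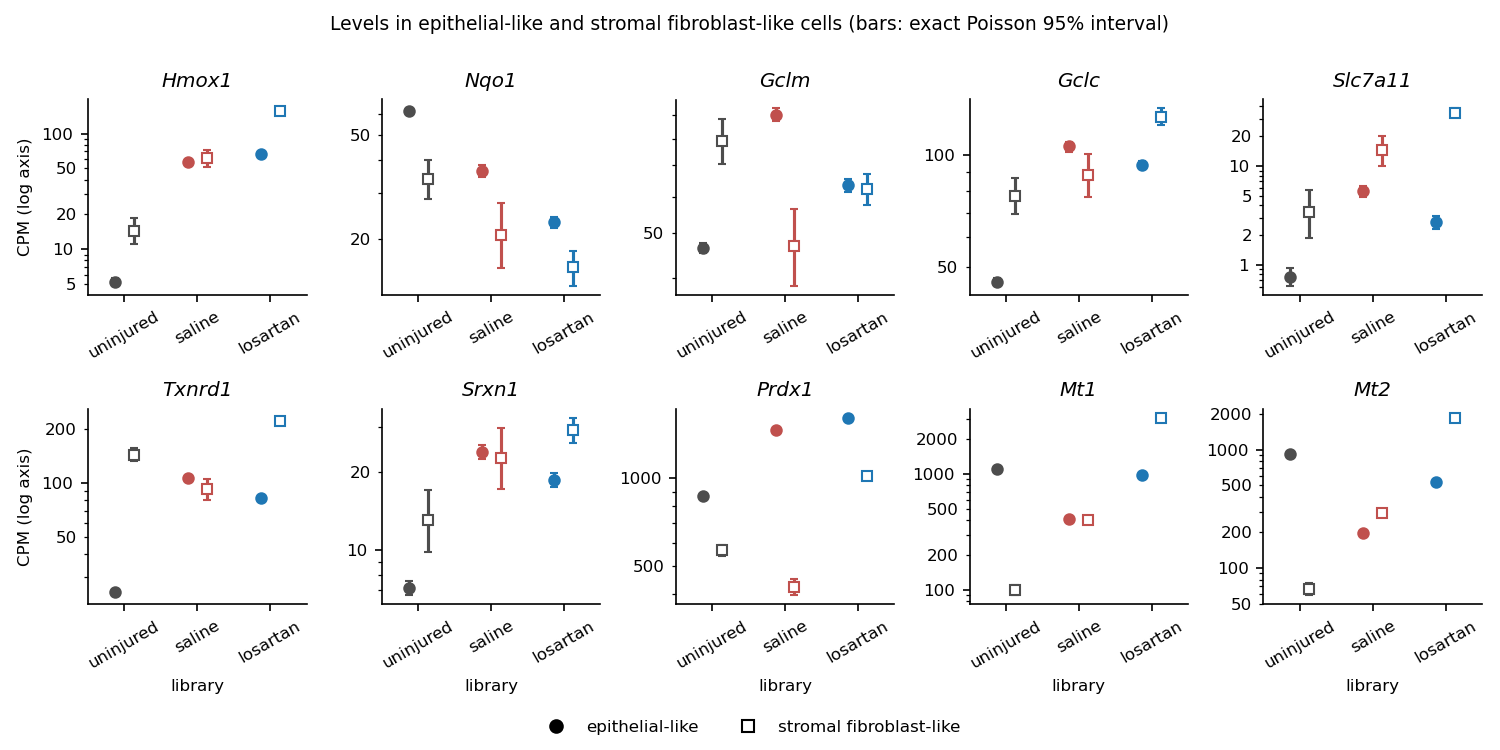
CPM on a log axis of each member in epithelial-like cells (filled circles) and stromal fibroblast-like cells (open squares) of the uninjured, saline and losartan libraries, with exact Poisson 95% intervals. In epithelium Hmox1 goes from 5.23 to 56.4 and 66.1 CPM, and Mt1 from 1096 to 410.2 and 986 CPM; in stroma Mt1 goes from 99.7 to 402 and 3026 CPM.

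Losartan against uninjured epithelium gave 5 members higher and 2 lower, where 15.3% of 8494 measured genes were higher and 19.3% lower. The 5 were Hmox1, at a ratio of 12.6 (11.7 to 13.7), Txnrd1, Srxn1, Gclc at 2.07 and Prdx1, and the 2 lower were Nqo1 and Mt2. Both injured libraries are set against the same uninjured library, so these comparisons share their control.

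The epithelial-like class was not made of the same clusters in the libraries, and each value above mixes states. Uninjured cells sat in clusters 1, 3, 5, 11, 13, 14, 15 and 17, and injured ones in clusters 4, 9 and 12. Hmox1 ranged from 1.30 CPM in cluster 5, led by Spink7 and Gsta2, to 11 CPM in cluster 11, led by Asprv1, Psca and Muc4, across the uninjured clusters. In the injured clusters it ranged from 30.4 to 79.9 CPM, so the ranges did not overlap. Txnrd1 gave the same picture, at 9.93 to 51.3 CPM in the uninjured clusters and 67.8 to 109 CPM in the injured ones.

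Gclc and the metallothioneins varied widely between epithelial clusters. Gclc was 5.00 CPM in the uninjured cluster 11 and 80.1 CPM in cluster 15, led by the proliferation genes Top2a and Mki67. In the injured libraries it was 28.8 CPM (saline) and 21 CPM (losartan) in cluster 9, led by Sprr2f, Ltf and Krt19, and 199 and 149.9 CPM in cluster 4, led by Kcnq5, Mmp10 and Pthlh. In cluster 12 it was 43.8 and 38.4 CPM. Of the injured clusters only cluster 4 was thus above the uninjured class value of 45.5 CPM. Cluster 4 gave 3758 of the 4451 saline and 5210 of the 5788 losartan Gclc UMIs of the class. Among the 874 cells of cluster 11 and the cells of cluster 9, which share low Gclc, Mt1 was also low, at 177 CPM in the former and 157 CPM (saline) and 287 CPM (losartan) in the latter. Uninjured Mt1 was highest, at 2487 CPM, in cluster 3, whose 1892 cells were led by Adm, Dnajb1 and Atf3. Those cells also had 15331 CPM over 14 immediate-early and heat-shock genes, a list known to be raised by enzymatic dissociation, whereas the whole class had 9214, 5266 and 5132 CPM in the uninjured, saline and losartan libraries. Their part in the metallothionein levels was not tested. Without cluster 3, Mt1 and Mt2 were still lower in saline than in uninjured, at log2 ratios of -0.70 and -1.68, but losartan Mt2 was no longer called lower than uninjured, at -0.28, and Nqo1 alone was.

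Within each injured cluster Mt1 and Mt2 were higher in losartan than in saline. The Mt1 ratio was 2.15 (2.11 to 2.19) in cluster 4, 1.83 (1.76 to 1.91) in cluster 9 and 1.89 (1.69 to 2.12) in cluster 12, led by Krt17 and Krt7. The Mt2 ratios were 2.40 (2.34 to 2.47), 1.86 (1.75 to 1.98) and 2.26 (1.95 to 2.62). All 6 values were past the fold for a call, where 2.26%, 2.44% and 10.4% of the measured genes of clusters 4, 9 and 12 were called higher and 5.58%, 7.54% and 13.6% lower. Cluster 4, the cluster with most Mt1, held 31.2% of saline and 49.7% of losartan epithelial-like cells. Fewer members differed otherwise: Gclm (-0.60) and Nqo1 (-0.63) were lower in cluster 4, and Gclm (-0.88) and Slc7a11 (-1.08) lower and Hmox1 (0.82) higher in cluster 12, a shallow cluster with a median of 1570 UMIs per cell.

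**Figure D4:**
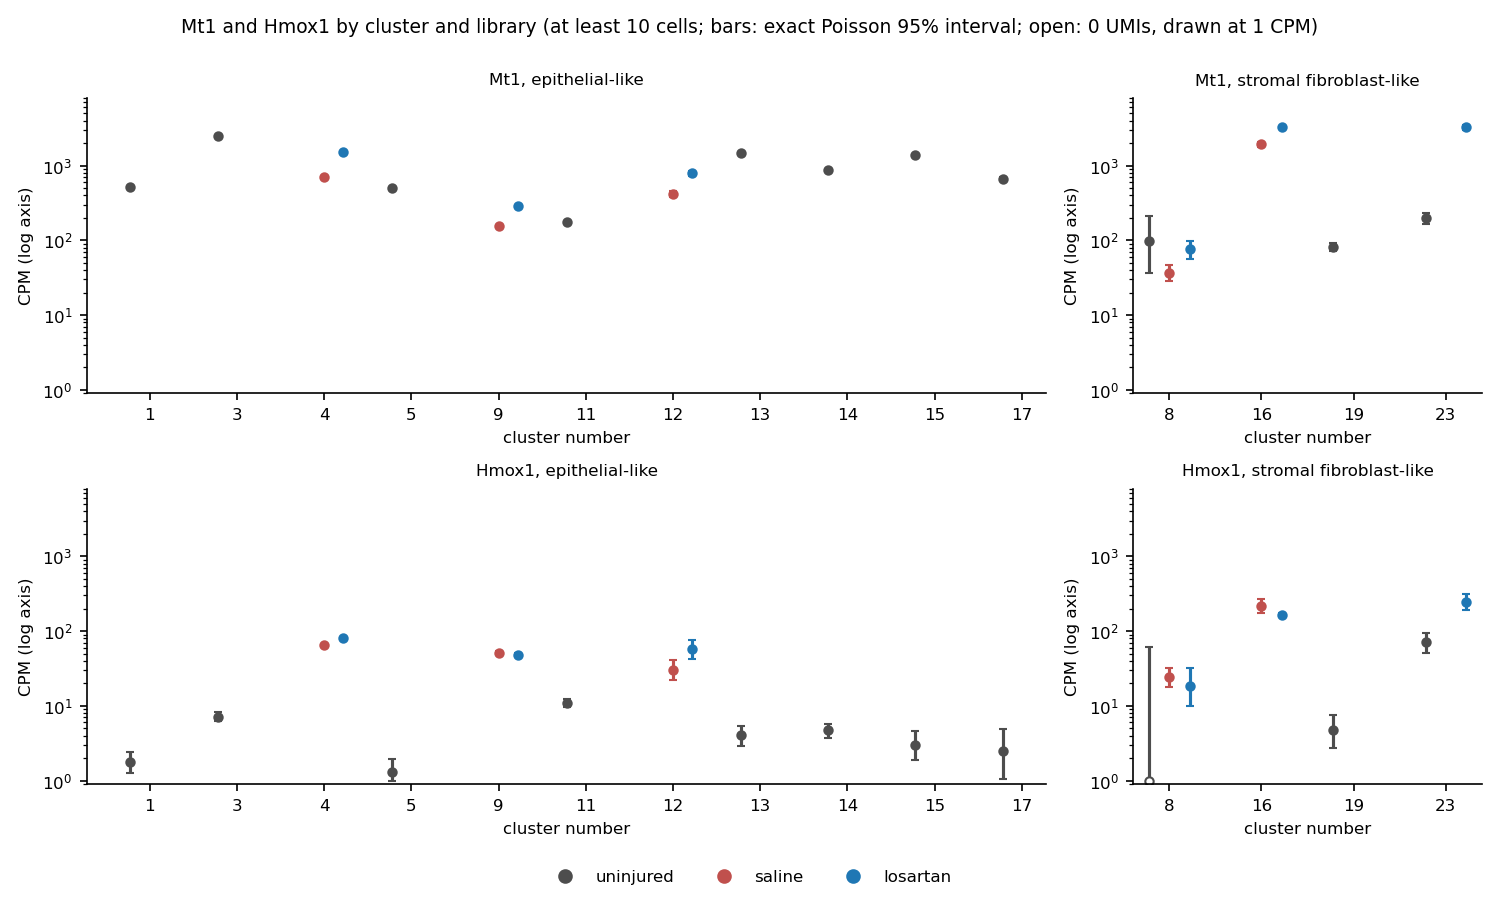
CPM on a log axis of Mt1 (top) and Hmox1 (bottom) in each epithelial-like (left) and stromal fibroblast-like (right) cluster with at least 10 cells in a library, with exact Poisson 95% intervals; open points mark 0 UMIs. In clusters 4, 9 and 12 losartan Mt1 lies above saline Mt1, and epithelial Hmox1 is 1.30 to 11 CPM in uninjured clusters and 30.4 to 79.9 CPM in injured ones.

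Stromal fibroblast-like cells, the class that holds keratocytes, showed the widest metallothionein range. Mt1 was 99.7 CPM (90.2 to 109.9) in uninjured, 402 CPM (377 to 428) in saline and 3026 CPM (2993 to 3059) in losartan, and Mt2 was 66.9, 294 and 1845 CPM. Losartan was thus above saline by 7.52 times (7.06 to 8.02) for Mt1 and 6.26 times (5.81 to 6.76) for Mt2, and above uninjured by 30.4 times (27.5 to 33.6) and 27.6 times (24.4 to 31.2). Hmox1 was 14.5 CPM (11.1 to 18.7), 61.4 CPM (51.9 to 72.1) and 157 CPM (149.6 to 165). The 3 libraries followed the same order for each of these genes, with no overlap of intervals.

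Those stromal values came largely from 1 cluster. Cluster 16, led by Ptx3, Mmp3, Cxcl5 and Saa3, genes of inflamed fibroblasts, held 1 uninjured, 17 saline and 361 losartan cells. Its cells were deep, with a median of 26720 UMIs. The 17 saline cells gave 888 of the 970 Mt1 UMIs of the saline class (91.5%), and the losartan cells 31782 of 32671 (97.3%). Most saline cells (97.4%) were in cluster 8, led by Dpt, Apod and Serpinf1 with a median of 2514 UMIs, and most uninjured cells (74.6%) in cluster 19, led by Kera and A2m. Cluster makeup and treatment therefore cannot be told apart in this class.

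Stromal Mt1 differed more between clusters 16 and 8 than between libraries. In cluster 16 Mt1 was 1915 CPM (1791 to 2045) in saline and 3230.2 CPM (3195 to 3266) in losartan, and in cluster 8 it was 37.1 and 75.6 CPM. The losartan to saline ratio within cluster 8 was 2.04 (1.40 to 2.95) for Mt1 and 1.73 (1.06 to 2.79) for Mt2. A further 23 losartan cells in cluster 23, led by Fmod, Coch and Omd, had 3238 CPM of Mt1, 248 CPM of Hmox1 and 349 CPM of Gclc, against 196, 70.9 and 129 CPM in the 73 uninjured cells of that cluster. Hmox1 in cluster 16 was 218 CPM in saline and 164 CPM in losartan, the reverse of the order in the class as a whole.

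The other stromal members did not all move one way. Against uninjured, saline stroma had 5 members higher (Hmox1, Mt1, Mt2, Slc7a11 and Srxn1) and 3 lower, where 13.2% of measured genes were higher and 34.1% lower. The lower ones were Nqo1 (34.0 to 20.7 CPM), Gclm (79.0 to 46.9 CPM) and Txnrd1 (143 to 92.1 CPM). All genes had a median log2 ratio of -0.37 in this pair. The median-of-ratios size factors put the shift of all genes at -0.42 here and at 0.35 for losartan against saline, and on that scaling 0 members were called lower in saline. Without cluster 16 the counts became 1 higher and 6 lower, and Mt1 turned to -1.15 and Mt2 to -1.16.

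Losartan against saline stroma gave 6 members higher and none lower (33.1% of genes higher, 17.5% lower). Besides Mt1 and Mt2 these were Hmox1, Prdx1 (421 to 1019 CPM), Txnrd1 (92.1 to 222 CPM) and Slc7a11 (14.5 to 34.6 CPM), at ratios of 2.56, 2.42, 2.41 and 2.39. The members' median log2 ratio was 1.12 against 0.27 for all genes. Without cluster 16 the count was 4 higher, and Slc7a11 turned to -0.37. The losartan cells then left were 307 in cluster 8 and 23 in cluster 23, where saline had 1 cell. Those 23 cells held 836 Mt1, 64 Hmox1 and 90 Gclc UMIs, against 53, 13 and 62 in the 307. Within clusters, saline and losartan Prdx1 was 285 and 298 CPM in cluster 8, and 992 and 1082 CPM in cluster 16. Hmox1 was 24.2 and 18.5 CPM in cluster 8. The 17 saline cells of cluster 16 had Srxn1 at 73.3, Nqo1 at 66.8 and Gclm at 86.2 CPM. Its losartan cells had less, at 31.2, 16.7 and 62.8 CPM. Txnrd1 (151 and 235 CPM) and Slc7a11 (12.9 and 37.0 CPM) were higher there in losartan. Against uninjured, losartan had 8 members higher and 1, Nqo1, lower (16.5% and 22.3% of genes). Without cluster 16 these became 5 and 2, with the same 23 losartan cells of cluster 23 included.

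Macrophage or monocyte-like cells, cluster 7, led by Pf4, Mmp12 and C1qa, could be compared only between the injured libraries, since the uninjured library held 3 of them. There 6 members were lower in losartan than in saline and none higher, where 4.43% of measured genes were lower and 5.94% higher. The members' median log2 ratio was -0.73, against 0.05 for all genes. Slc7a11, which brings in the cystine used for glutathione, fell from 1008 CPM (989 to 1027) in saline to 345 CPM (328 to 363) in losartan, 2.92-fold lower (2.77 to 3.08). Gclm was 105 CPM in saline and 40.6 CPM in losartan, 2.59-fold lower (2.21 to 3.05), and Gclc was 119.8 and 70.3 CPM, 1.70-fold lower (1.5 to 1.93). Gclc was the least firm of these: its log2 ratio of -0.73 became -0.50 with cells thinned to 1500 UMIs and -0.58 with a mean over cells, both short of the call. In saline, 19 of the 667 cells held 50% of its UMIs, and in losartan 23 of 396.

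Hmox1 was 1.67-fold lower (1.60 to 1.73) in losartan macrophage-like cells, at the levels given above, and Prdx1 was 1976 CPM in saline and 1098 CPM in losartan. Mt2 was 425 and 230.0 CPM, whereas Mt1 was 1199 and 1034 CPM and not called. Txnrd1 (379 and 253 CPM) and Srxn1 (64.3 and 44.1 CPM) pointed the same way and missed the call by little, and Nqo1 was under 10 CPM in both. Of the related glutathione synthesis genes 1 was higher and 2 lower of 5 measured, and of the thioredoxin and peroxiredoxin genes 0 higher and 4 lower of 10. The lower ones, picked here after their values were seen, included glutathione reductase Gsr (297 to 124 CPM), thioredoxin Txn1 (1349.9 to 676 CPM), peroxiredoxin Prdx5 (1833 to 718 CPM) and glutaredoxin Glrx (256 to 101 CPM). Neutrophil markers summed to 2722 CPM in saline and 1564 CPM in losartan macrophage-like cells. Of those markers, the 8 (saline) and 9 (losartan) at least 10 times as high in neutrophil-like cells as elsewhere were at a median of 1.04% and at most 7.05% of their neutrophil level in saline macrophage-like cells, and 0.220% and 4.32% in losartan, while Slc7a11 was at 22.6% and 11.4% of its neutrophil level.

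**Figure D5:**
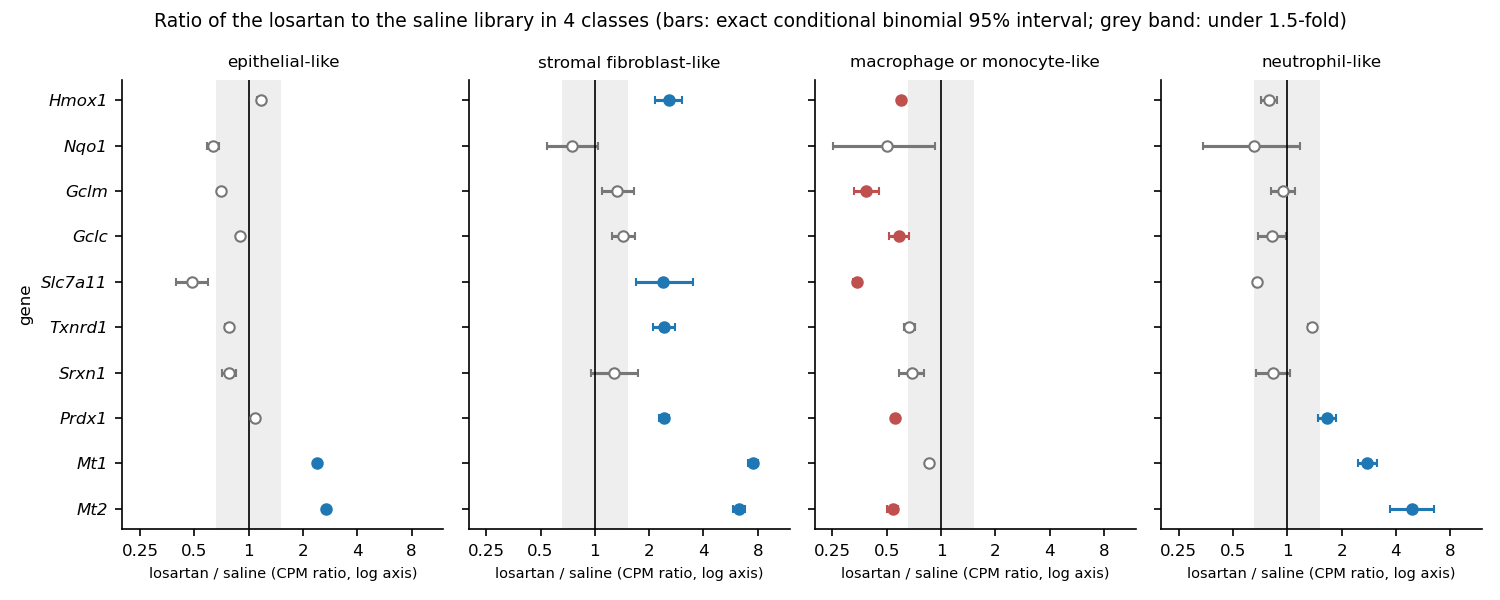
Losartan to saline CPM ratio of each member in 4 classes, with exact conditional binomial 95% intervals; filled blue points are called higher, filled red lower, open grey neither, and the grey band marks under 1.5-fold. Mt1 and Mt2 are higher in losartan epithelium (2.40 and 2.69) and stroma (7.52 and 6.26), and 6 members are lower in losartan macrophage-like cells.

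Neutrophil-like cells had 3 members higher in losartan than in saline and none lower (12.7% of genes higher, 6.90% lower). These were Mt1 (48.5 and 135 CPM), Mt2 (7.37 and 36.1 CPM) and Prdx1 (76.5 and 128 CPM). The epithelial markers at least 10 times as high in epithelium as in any other class (11 in saline, 18 in losartan) were at a median of 1.02% of their epithelial level in saline neutrophil-like cells and 3.73% in losartan ones, with highest values of 1.44% and 8.40%. Mt1 stood at 11.8% and 13.7% of its epithelial level, and Mt2 at 3.69% and 6.71%. The epithelial level of Prdx1 was 1469.9 CPM in saline and 1609 CPM in losartan, beside its 76.5 and 128 CPM here. The part of carried-over RNA in these 3 genes, over the class or within its clusters, was not tested.

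The neutrophil-like class also changed its makeup. Cluster 2, led by the cytokine genes Ccl3, Il23a, Ccl4 and Tnf, held 61.2% of saline and 15.5% of losartan neutrophil-like cells, and cluster 0, led by Retnlg, Cxcr2 and Csf3r, held 38.8% and 84.5%. Hmox1 was 150.5 CPM in saline and 119 CPM in losartan over the class. Within clusters it was 50.8 and 52.8 CPM in cluster 0, and 216 and 466 CPM in cluster 2, a ratio of 2.16 (1.89 to 2.46). Prdx1 was higher in losartan within both, at 36.9 and 80.2 CPM in cluster 0 and 103 and 378 CPM in cluster 2. Slc7a11 was abundant in both clusters of both libraries, at 3539 and 2699 CPM in cluster 0 and 5079 and 4708 CPM in cluster 2. Calls within clusters numbered 4 higher in cluster 0 (18.1% of genes higher, 4.22% lower) and 8 higher in cluster 2 (10.8% and 14.1%), with none lower in either.

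The smaller classes give levels with wider intervals. Dendritic-like cells (91 in saline and 54 in losartan) had Slc7a11 at 426 and 392 CPM and Txnrd1 at 431 and 475 CPM, and Mt1 alone was called, at 518 and 831 CPM (10.7% of genes higher, 13.7% lower). Mural-like cells, the smooth muscle and pericyte class, had Mt1 at 1281, 525 and 1696 CPM and Mt2 at 322, 129.7 and 851 CPM in the uninjured, saline and losartan libraries, lowest in saline as in epithelium. Their Slc7a11 was 0 in uninjured, with a 95% interval reaching 9.59 CPM, 346 CPM in saline and 47.5 CPM in losartan, or 7.74% and 1.57% of the neutrophil level, beside 2.0% to 9.60% and 0.204% to 1.71% for the neutrophil markers chosen as above. Members called in mural-like cells were 6 higher and 2 lower in saline than in uninjured (40.6% and 26.1% of genes), 3 higher and 1 lower in losartan than in saline (23.8% and 26.4%), and 7 higher and 0 lower in losartan than in uninjured (32.1% and 19.7%). The saline library had 33 of these cells, the others 89 and 91. The 84 uninjured Schwann-like cells had Mt1 at 1370.1 CPM and Mt2 at 677 CPM. The 14 immediate-early and heat-shock genes summed to 20568 CPM in those cells. In mural-like cells they summed to 24687, 10522 and 9367 CPM in the uninjured, saline and losartan libraries. Their part in these metallothionein levels was not tested.

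Mt1 and Mt2 were not in a fixed proportion. The ratio of Mt1 to Mt2 UMIs was 1.18 (1.17 to 1.19) in uninjured epithelium, 2.05 (2.0 to 2.11) in saline and 1.83 (1.81 to 1.86) in losartan. In stroma it was 1.49, 1.37 and 1.64 in that order, and in macrophage-like cells 2.82 (2.72 to 2.92) in saline and 4.49 (4.20 to 4.81) in losartan. It was below 1 in the uninjured epithelial clusters 1 and 5, at 0.661 and 0.826. As these are counts of 2 different transcripts, the change of the ratio between cells is the comparison, not its absolute value.

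Transcripts of the regulators were set beside those of the targets. In epithelium Nfe2l2 was 109.9, 123 and 121 CPM in the uninjured, saline and losartan libraries and not called in any pair. Keap1 was 46.8, 25.9 and 24.6 CPM and was called lower in both injured libraries. Bach1 was 43.8, 34.7 and 42.1 CPM, and Mtf1, the zinc sensor, was 10.7, 15.8 and 16.5 CPM. In stroma Nfe2l2 was 219.6, 141 and 289 CPM and Keap1 was 48.0, 11.6 and 31.0 CPM. Neutrophil-like cells had the most Nfe2l2, at 886 CPM in saline and 1150.4 CPM in losartan, and little Keap1, at 6.02 and 4.65 CPM. Transcript levels do not measure NRF2 protein.

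Other genes of these pathways came from 99 related genes in 9 lists. In epithelium, saline against uninjured, 30 of the 82 measured were higher and 20 lower, with a median log2 ratio of 0.17 (19.4% of all genes higher, 17.5% lower, median 0.01). Of the 8 measured genes of glutathione synthesis, recycling and cystine supply, 7 were higher and 1 lower, with a list median of 0.76. The higher ones included glutathione synthetase Gss (31.7 to 58.1 CPM), Gsr (57.7 to 96.3 CPM), Glrx (14.5 to 63.2 CPM) and Slc3a2 (87.8 to 137 CPM), the partner chain of Slc7a11, and also Chac1 (10.4 to 29.3 CPM), which degrades glutathione. The lower one was Cth (31.8 to 7.94 CPM), which makes cysteine from cystathionine. Of 8 measured heme and iron genes 5 were higher and none lower, among them the ferritin chains Fth1 (1534 to 4375 CPM) and Ftl1 (251 to 491 CPM) and biliverdin reductase Blvrb (47.1 to 77.4 CPM).

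The glutathione transferases and peroxidases were split, with 5 of 17 measured higher and 7 lower in saline than in uninjured epithelium, the pair just given. Gpx2 went from 0.764 to 25.8 CPM and was 6.65 CPM in losartan, while Gsta2 went from 179.5 to 8.85 CPM and was 15.9 CPM in losartan. Among carbonyl-handling genes, the reductase Akr1b8 was 6.47 CPM in uninjured, 161 CPM in saline and 158 CPM in losartan, and Esd was 127, 646 and 534 CPM. Aldh3a1, a corneal crystallin and aldehyde dehydrogenase, was 11098, 309 and 1338 CPM, and Tkt, the transketolase that is likewise abundant in cornea, was 5620.3, 281 and 726 CPM. These last were the largest falls among the related genes, and both were higher in losartan than in saline. Between losartan and saline epithelium 4 of 79 related genes were higher and 7 lower (1.95% and 5.39% of all genes), the lower ones including Txnip (86.5 to 28.8 CPM), an inhibitor of thioredoxin, and the higher ones Ptgr1 (114 to 213 CPM).

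In stroma 37 of 80 related genes were higher in losartan than in saline and 6 lower, at a median of 0.53 against 0.27 for all genes, of which 33.1% were higher and 17.5% lower. Superoxide dismutase Sod2 was 104, 77.6 and 759 CPM in the uninjured, saline and losartan libraries, and the zinc importer Slc39a14 was 15.8, 54.7 and 157 CPM. Akr1b8 was 0.738, 44.0 and 48.1 CPM, higher in both injured libraries, whose stromal cells lay mostly in other clusters than the uninjured ones. Cluster 16 held 52.2% of losartan and 2.43% of saline stromal cells, so the stromal values here also mix cluster makeup and treatment. In macrophage-like cells 8 of 70 related genes were higher in losartan and 13 lower (5.94% and 4.43% of all genes), with a median log2 ratio of 0.01. In neutrophil-like cells 6 of 52 were higher and 9 lower (12.7% and 6.90% of all genes), the higher share being close to that of all genes. Aldh3a1 read 1.23 CPM in saline and 18.0 CPM in losartan macrophage-like cells, and 3.39 and 54.2 CPM in neutrophil-like cells, where the epithelial markers given above were also at a higher share in losartan.

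Genes whose pattern over 15 class and library points was most like each member were found by Pearson correlation of log2(CPM + 5) among 13310 genes. Points of 1 library share its depth, so these values are descriptions. Mt1 and Mt2 correlated with each other at 0.93. Slc7a11 was followed most closely by Tnfrsf1b (0.99), Nlrp3 (0.98) and Gpr35 (0.98), and Hmox1 by Fam102b (0.86), Pf4 (0.83) and Mafg (0.83), which encodes a small MAF protein. The closest genes were Nit1 (0.94) for Nqo1, Lrrc57 (0.86) for Gclm, H6pd (0.89) for Gclc, Arhgef2 (0.96) for Txnrd1, Eaf1 (0.91) for Srxn1 and Timm13 (0.94) for Prdx1. Among the NRF2 targets the closest pair was Gclc and Gclm at 0.79, with Slc7a11 and Srxn1 at 0.75 and Hmox1 and Srxn1 at 0.74. Nqo1 and Slc7a11 ran opposite to each other, at -0.74.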

How the data were processed

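Droplet single-cell RNA-seq of 3 libraries was deposited as 1 gene-by-barcode matrix of UMI counts per library. The deposited counts came from Cell Ranger 8.0.0 per the file headers, with GRCm38 per the submitters' processing notes. Per the labels' protocols, tissue was digested with 0.7 mg/mL liberase for 1 hour and 0.25% trypsin for 15 minutes and passed through a 40 µm filter.

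Cells needed at least 500 genes and at most 20% mitochondrial UMIs, which removed 703 (uninjured), 680 (saline) and 725 (losartan) barcodes. Doublets, ranked against simulated ones, were removed at 0.8% per 1000 barcodes (1334, 334 and 243). Clustering used 2000 variable genes, 30 principal components, 20 neighbours and Leiden resolution 0.8 (Python 3.11.15 with numpy 2.4.6, scipy 1.17.1, scikit-learn 1.9.0 and leidenalg 0.10.2). Clusters were named from 19 marker lists, needing 3 markers in at least 10% of cells. With no marker of its class among the 10 leading genes, a cluster also needed a score gap of 0.12. Such a cluster was left unnamed too if it was shallow for its library. That scoring was set after the clusters were seen. UMIs were summed per class and library. With 1 library per condition no test was possible and no p-value is given; calls, intervals and the minimum of 10 CPM are as stated in the results. The calculation was checked on simulated counts. All 10 members were eligible to be named everywhere, but only some are named for the smaller classes and within clusters. Of the related lists, the 3 highest and 3 lowest log2 ratios per class and pair were eligible, with Nfe2l2, Keap1, Bach1 and Mtf1. Further list genes were picked after their values were seen. Members and lists were chosen with earlier results of these data known. Alternatives covered cell filters, doublet removal, resolution, scaling, pseudocount, thinning and cluster weighting.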

Additional observations from a re-analysis of the deposited data

Results flagged for a closer look

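Several members were called higher in 1 class and lower in another for the same pair of libraries. None of these differences between classes was tested, since each condition has 1 library. Values are log2 ratios on the CPM + 5 scale. For saline against uninjured, Gclm was 0.88 in epithelial-like and -0.70 in stromal fibroblast-like cells, and Txnrd1 was 1.91 and -0.61. The metallothioneins ran the other way, with Mt1 at 1.96 in stroma and -1.41 in epithelium, and Mt2 at 2.06 in stroma and -2.19 in epithelium. In stroma, 17 saline cells of cluster 16 held 91.5% of the Mt1 and 92.5% of the Mt2 UMIs. Without that cluster both genes were lower in saline stroma too, as given in the results. All genes had a median log2 ratio of -0.37 in stroma in this pair. With median-of-ratios scaling 0 members were called lower there. For losartan against uninjured, Mt2 was 4.68 in stroma and -0.79 in epithelium.

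For losartan against saline the contrast was with macrophage or monocyte-like cells. Hmox1 was 1.29 in stroma and -0.73 in macrophage-like cells, Slc7a11 was 1.02 and -1.53, and Prdx1 was 1.26 and -0.85. Mt2 was 1.41 in epithelium and 2.63 in stroma, against -0.87 in macrophage-like cells. The stromal values rest on clusters that hold different shares of each library, as given in the results.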

How the results depend on the processing

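No paired analysis was possible because each condition has 1 library, and no replicate could be left out for the same reason. The epithelial and macrophage counts were the steadier ones, and the stromal counts were not. Over all alternatives run, epithelial losartan to saline log2 ratios stayed between 0.95 and 1.32 for Mt1 and between 1.09 and 1.53 for Mt2, epithelial Hmox1 in saline against uninjured stayed between 2.5 and 3.2, and 5 to 7 members were lower in losartan macrophage-like cells. Leaving out clusters 3, 12 or 16 and counting clusters 6 and 10 as epithelial-like were chosen after seeing the data. Where a value moved, the cause was not tested. For losartan against saline epithelium, 1 member was called lower with a pseudocount of 1 CPM, at least 200 genes, at most 10% mitochondrial UMIs, no doublet removal or equal cluster weights, and 2 with thinning to 1500 UMIs or a mean over cells. Without cluster 3, 1 member was lower in losartan than in uninjured epithelium.

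Stroma, saline against uninjured: with at least 200 genes, 2 members were higher and 6 lower, with Mt1 at -1.25, Mt2 at -1.27 and Srxn1 at -0.17. At resolution 0.4, and equally without cluster 16, 1 was higher and 6 lower, with Mt1 at -1.15, Mt2 at -1.16 and Srxn1 at -0.19. With thinning 1 was higher, with Srxn1 at -1.13 and Mt2 at -0.23; with a mean over cells 2 were higher, with Mt1 at -0.23 and Mt2 at -0.30. With equal weights over shared clusters Mt1 was -1.29, Mt2 -2.64 and Gclm 0.17. Only cluster 8 had enough cells in both libraries for this, so these are its values alone. Its 27 uninjured cells held 6 Mt1, 11 Mt2 and 2 Gclm UMIs. With median-of-ratios scaling, or no doublet removal, 0 were lower.

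Stroma, losartan against saline: 1 member was lower with median-of-ratios scaling, at least 200 genes or no doublet removal, and 2 were higher with equal weights. In this pair too, equal weights rested on cluster 8 alone. Slc7a11 turned to -0.24 with at least 200 genes, -1.17 without doublet removal, -0.37 at resolution 0.4 and without cluster 16, and -0.56 with equal weights, which also turned Hmox1 to -0.31 and Txnrd1 to -0.33. Losartan against uninjured: 5 were higher with at least 200 genes, resolution 0.4, a mean over cells, equal weights or without cluster 16, and 4 with thinning; 2 were lower at resolution 0.4, with thinning, with equal weights and without cluster 16. Txnrd1 turned to -0.39 with at least 200 genes, -0.59 at resolution 0.4 and without cluster 16, and -0.64 with equal weights. Srxn1 turned to -0.26 with at least 200 genes, -0.44 at resolution 0.4 and without cluster 16, and -0.68 with thinning, and Prdx1 to -0.56 with at least 200 genes and -0.58 at resolution 0.4 and without cluster 16.

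In mural-like cells, saline against uninjured, thinning turned Nqo1 to -3.38 and Gclm to -1.49, and a mean over cells turned Gclm to -0.30. Resolution 0.4 was not run for epithelial-like, macrophage-like and dendritic-like cells, whose classes then mixed markers, nor equal weights for epithelium against uninjured, where no cluster was shared. Depth limits the low genes most: over whole classes, Slc7a11 in epithelium and Nqo1 in neutrophil-, macrophage- and dendritic-like cells were under 10 CPM.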

Other observations

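Cluster 18, left unnamed, joined 114 saline and 234 losartan cells led by Ddit4l, Rprm, Trp53inp1, Eda2r and Ddit3. Trp53inp1 and Eda2r are known p53 targets, and Ddit3 encodes a factor of the integrated stress response. The NRF2 targets were not uniformly high or low in it. Txnrd1 was 610.2 CPM in saline and 537 CPM in losartan, above the 489 CPM of losartan neutrophil-like cells, and Srxn1 was 109 and 148 CPM. Gclm was 254 and 203 CPM, Nqo1 116 and 84.5 CPM, Gclc 176 and 165 CPM and Hmox1 231 and 116 CPM. In both libraries Gclm, Srxn1, Nqo1 and Txnrd1 were above every named class given in the results, where the highest Nqo1 was 61.8 CPM in uninjured epithelium. Class values pool clusters, and losartan Txnrd1 in cluster 2 of the neutrophil-like class was 681 CPM, above both values here. Slc7a11 was 27.9 and 32.5 CPM, far below neutrophil-like and macrophage-like cells, Hmox1 was below macrophage-like cells, and Prdx1, at 1227 and 1169.8 CPM, was below injured epithelium. Mt1 was 425 CPM in saline and 829 CPM in losartan, and Mt2 258 and 552 CPM, the same order between libraries as in epithelial-like cells.

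Cluster 22, also unnamed and led by Timp1 and Crabp1, had the opposite order between libraries. Its 28 saline cells had Mt1 at 2188 CPM and Hmox1 at 156 CPM, and its 87 losartan cells had 570.4 and 43.0 CPM. The Mt1 values rest on 267 saline and 199 losartan UMIs, in a cluster with a median of 2044.5 UMIs per cell.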
